A study of Mus musculus with 15 samples.

Results

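The 10 genes described here encode proteins that shape and untangle mitotic chromosomes, and they were followed across mammospheres treated with PHA, ICG or both: Top2a, Mki67 and the 8 genes for condensin subunits, Smc2, Smc4, Ncapd2, Ncapg, Ncaph, Ncapd3, Ncapg2 and Ncaph2. They were chosen as a named set, and their probe sets were those that the array's annotation assigns to 1 of these symbols alone. That gave 26 probe sets for 10 of the 18193 genes measured, from 1 probe set for Mki67 and for Ncapg2 to 5 for Smc2. No filter on low values was applied, so all 10 genes were tested. Each gene is described by the brightest of its probe sets on average, and the other probe sets are given where they differ.

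The series holds 15 Affymetrix mouse arrays in 5 groups of 3, on total RNA of mammospheres, which are cell clusters grown without attachment from dissociated primary mammary tumours. All groups share the strain FVB/N and the genotype WAPCre-DNbcatn;HGF, and all cultures grew for 7 days before 24 h of treatment. The name joins a Cre recombinase under the promoter of the milk protein WAP, an altered β-catenin allele and HGF, the ligand of the receptor MET; the promoter that drives HGF and the ages of the mice are not given in the labels. The groups are PHA, ICG and DMSO (the vehicle) on the 9 arrays with the title code JAH, and PHA+ICG and DMSO on the 6 arrays with the code JHO. The design names inhibitors of the Wnt and MET pathways; PHA is known as a MET kinase inhibitor and ICG as an inhibitor of transcription driven by β-catenin, and the labels give neither dose. They do not say whether the 3 arrays of a group came from separate cultures or animals, so the p-values reflect only the variation among these arrays, part or all of which may be technical. The RNA is that of whole cultures, so fewer cells of a kind and less RNA per cell cannot be told apart.

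Condensins are rings of a pair of SMC ATPases, SMC2 and SMC4, closed by further subunits, and they fold chromatin into the rods seen in mitosis. Condensin I carries the subunits made from Ncapd2, Ncapg and Ncaph and reaches chromosomes after the nuclear envelope breaks down, whereas condensin II carries those made from Ncapd3, Ncapg2 and Ncaph2 and is nuclear in interphase too. Topoisomerase IIα, made from Top2a, passes one DNA duplex through another to separate sister chromatids, and Ki-67, made from Mki67, coats mitotic chromosomes and is a widely used label of cycling cells. Top2a, Mki67 and several condensin genes are transcribed mostly late in the cell cycle, through promoters that use a cell cycle element called CHR and CCAAT boxes bound by NF-Y.

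The stretches upstream of 4 of these genes are shown because they span the range of these letters, from many in Top2a, whose level differed most between ICG and DMSO arrays, to none in Ncaph. RefSeq promoter windows on GRCm38.p6, from 250 bases before to 50 after a start site, were found for 9 of the 10 genes; Smc4 had no entry. The bases before the annotated gene are printed 5′ to 3′ along the gene's strand. Capitals mark TTTGAA and TTCGAA, the letters searched for CHR, and CCAAT, each on either strand, so TTCAAA and ATTGG are the same letters on the opposite strand.
Top2a, chr11:99024200-99024439, minus strand: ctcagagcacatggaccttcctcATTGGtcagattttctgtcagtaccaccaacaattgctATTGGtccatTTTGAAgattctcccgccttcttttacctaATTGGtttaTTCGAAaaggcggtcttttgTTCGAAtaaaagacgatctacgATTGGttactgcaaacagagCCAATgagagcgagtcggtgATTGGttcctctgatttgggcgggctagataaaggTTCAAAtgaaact
Mki67, chr7:135716451-135716629, minus strand: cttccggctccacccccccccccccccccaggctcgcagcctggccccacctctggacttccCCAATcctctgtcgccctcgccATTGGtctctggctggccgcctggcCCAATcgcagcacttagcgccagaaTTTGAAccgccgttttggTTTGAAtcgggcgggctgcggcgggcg
Ncaph2, chr15:89355469-89355718, plus strand: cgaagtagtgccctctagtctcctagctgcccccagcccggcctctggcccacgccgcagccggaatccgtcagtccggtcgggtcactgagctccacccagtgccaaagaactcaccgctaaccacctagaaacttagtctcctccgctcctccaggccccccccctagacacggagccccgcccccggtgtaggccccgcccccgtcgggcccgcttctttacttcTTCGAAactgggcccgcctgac
Ncaph, chr2:127133955-127134204, minus strand: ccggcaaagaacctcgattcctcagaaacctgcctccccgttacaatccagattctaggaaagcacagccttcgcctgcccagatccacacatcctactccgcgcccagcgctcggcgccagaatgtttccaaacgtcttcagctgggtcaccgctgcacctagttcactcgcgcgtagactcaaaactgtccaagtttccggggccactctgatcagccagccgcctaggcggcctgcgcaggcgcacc

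In its whole window Top2a held 4 CHR matches and 6 CCAAT matches, and Mki67 held 2 and 3. Ncaph2 held 1 CHR match and no CCAAT, and the Ncaph window held neither. Over the 9 genes, 8 had a CHR match in some listed window (for Ncapd3 in its second window only) and 5 had CCAAT as well, namely Top2a, Smc2, Ncapd2, Ncapg and Mki67. Of all 32851 promoter windows, 19.2% held a CHR match, 37.4% held CCAAT, 7.52% held both and 3.37% held 3 or more CCAAT. The letters of an E2F site, searched as TTTGGCGC, TTTCCCGC, TTTCGCGC and TTTGCCGC on both strands, stood in the windows of Ncapd2, Ncapg and Ncapg2 and in 2.26% of all windows. These are matches of letters in a window; no binding was measured.

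The arrays' log2 values had medians between 5.73 and 5.93. Over all genes the JHO arrays spread 2.51 times as widely within their groups as the JAH arrays. The root mean square SD over genes was 0.363 for PHA+ICG and 0.313 for DMSO, against 0.125 to 0.147 for the 3 JAH groups. Each comparison was therefore fitted within its own title code. The average over the 10 genes did not follow this order. Its SD was 0.39 for JAH DMSO, 0.22 for PHA and 0.07 for ICG. For JHO DMSO it was 0.15 and for PHA+ICG 0.16. DMSO JAH array 1 lay farthest from its group over all genes (root mean square deviation 0.134, against 0.109 and 0.114 for the other DMSO JAH arrays) and was the lowest DMSO array for 8 of the 10 genes; results that turn on it are given without it too. Of the epithelial markers 9 of 12 lay above the median gene, so markers of the labelled tissue were present. Krt8, Krt18 and Epcam averaged 9.002 to 10.36 in the 5 groups. Krt5, Krt19 and Elf5 did not lie above the median gene, averaging 6.72, 5.84 and 5.63 over all arrays. Most fibroblast markers (14 of 15) and leukocyte markers (12 of 14) also lay above the median gene, and of the endothelial markers 1 of 8 did.

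With ICG alone, 9 of the 10 genes fell below DMSO and 1, Smc4, did not pass the test (15% of all genes called lower). With PHA alone none of the 10 passed in either direction (7.07% of all genes called lower and 3.14% higher). With PHA+ICG 3 fell, Top2a, Mki67 and Ncapd2 (1.54% of all genes called lower). Top2a showed the largest change of the set with ICG, by -3.48 on the log2 scale, and with PHA+ICG, by -2.10. Averaged over the 10 genes, the log2 level was 6.84, 6.74 and 6.71 on the ICG arrays and 7.77, 7.76 and 7.39 on the PHA arrays, against 7.28, 7.79 and 8.05 on the JAH DMSO arrays. It was 7.25, 7.50 and 7.55 on the PHA+ICG arrays, against 8.25, 8.48 and 8.52 on the JHO DMSO arrays. All ICG arrays thus lay below all JAH DMSO arrays in this average and all PHA+ICG arrays below all JHO DMSO arrays, while the PHA arrays lay within the range of the JAH DMSO arrays.

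**Figure D1:**
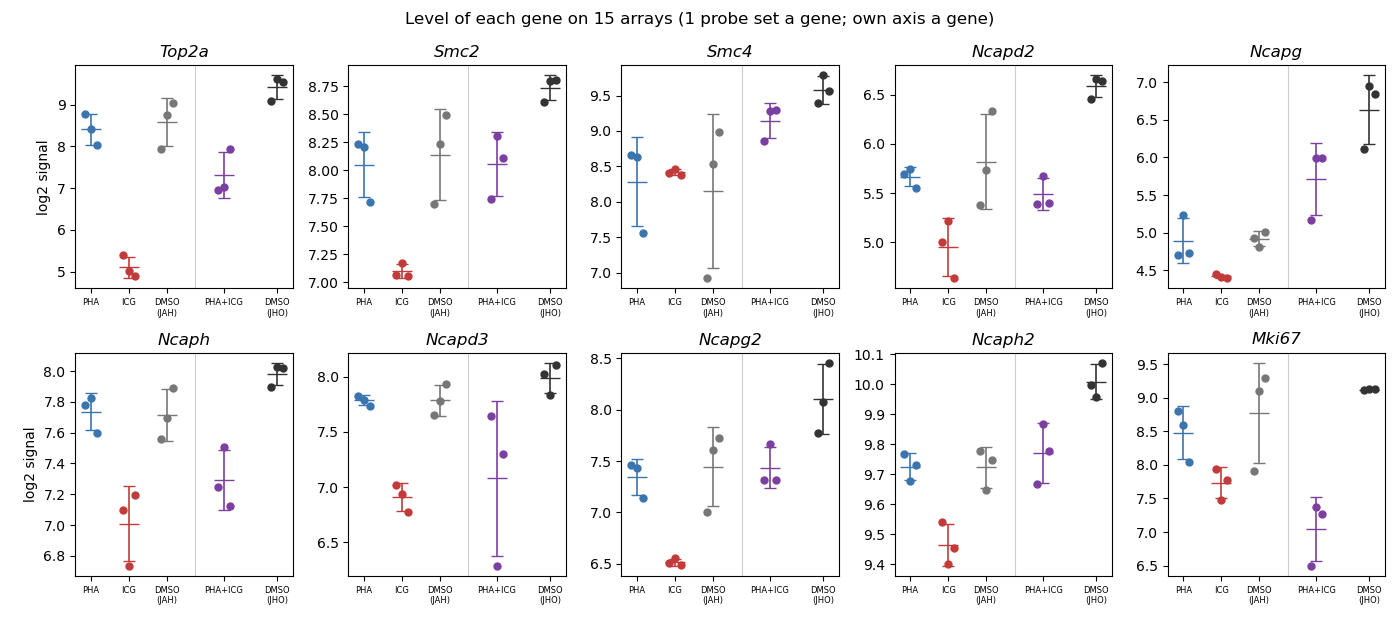
Log2 signal of each of the 10 genes (y axis, a separate scale for each gene) on every array, by group (x axis): points are arrays, the horizontal mark is the group mean and the bar 1 SD (n = 3), and the grey line separates the title codes. Top2a lies between 4.89 and 5.39 on the ICG arrays, below all JAH DMSO arrays, while Smc4 on the ICG arrays lies within the JAH DMSO range of 6.92 to 8.99.

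Called genes are those with an adjusted p under 0.05 in limma, with Benjamini-Hochberg adjustment over all 18193 genes. For ICG the 9 of 10 genes that fell stand beside 15% of all genes called lower (2734, with 2162 called higher; 2134 lower and 3447 higher once each array was centred on its median). For PHA the 0 of 10 stand beside 7.07% called lower and 3.14% called higher (1286 and 572; 938 and 1188 after median centring, 1093 and 897 after quantile normalization). For PHA+ICG the 3 of 10 stand beside 1.54% called lower (281, with 87 called higher; 214 and 109 after median centring, 234 and 130 after quantile normalization). The median log2 change of the 10 genes was -0.87 with ICG, -0.06 with PHA and -0.80 with PHA+ICG. The median of all genes was 0.03, 0.02 and 0.00 in that order. Without DMSO JAH array 1 the ICG median of the 10 genes was -1.01, with 9 of 10 called (2576 of all genes lower). DMSO JAH array 3 was the highest JAH DMSO array for 9 of the 10 genes. Without it the ICG median was -0.69, with 7 of 10 called (2354 of all genes lower).

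Same-numbered PHA+ICG and DMSO arrays deviated together from their group means. With the replicate number as a block 7 of the 10 genes fell (6.01% of all genes called lower). These were Top2a, Mki67, Ncapd2, Ncapg, Ncaph, Smc2 and Ncapd3. The labels name no pairs, so the block, here and for single genes below, rests on these same data. The numbers did not set arrays 2 and 3 apart. Deviations of DMSO array 3 correlated at 0.351 with PHA+ICG array 2 and at 0.277 with PHA+ICG array 3. In a fit of all 15 arrays with 1 weight for each title code none of the 10 passed for PHA+ICG. In that fit 6 of the 10 and 2621 of all genes had an unadjusted p under 0.05 in limma. Without weights 8 fell. The shares of all genes called lower were 2.53% with weights and 8.81% without. The count of called genes for this combination therefore ran from 0 to 8 of 10 with the way the error was estimated. The estimates themselves are the same in these fits. The weights follow the spread over all genes, which the 10-gene average did not share on the DMSO arrays (SD 0.39 in JAH, 0.15 in JHO).

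Top2a had the largest mean change of the 10 genes with ICG, and with PHA+ICG its change was close in size to that of Mki67. It measured 5.39, 5.02 and 4.89 on the ICG arrays and 8.77, 8.43 and 8.04 on the PHA arrays, against 7.93, 8.75 and 9.05 on the JAH DMSO arrays. The ICG arrays formed a separate low group, and the PHA arrays lay among the DMSO arrays. The fall with ICG was -3.48 ± 0.27 on the log2 scale (SE; limma adjusted p = 2.38e-05), which leaves 8.98% of the DMSO signal. With PHA the difference was -0.17 ± 0.27 (adjusted p = 0.747), with a 95% interval from -0.77 to 0.44. Top2a measured 6.97, 7.03 and 7.94 on the PHA+ICG arrays, against 9.10, 9.61 and 9.55 on the JHO DMSO arrays. These groups did not overlap, and the fall of -2.10 ± 0.28 (adjusted p = 0.0129) leaves 23.3% of the DMSO signal. It lost the call without DMSO JHO array 2, DMSO JHO array 3 or PHA+ICG array 2 (adjusted p 0.0752, 0.0683 and 0.0519).

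The Top2a transcript has 2 dimmer probe sets beside 1454694_a_at. On 1442454_at the ICG arrays measured 5.61, 5.67 and 5.64, against 5.62, 5.94 and 6.16 on the JAH DMSO arrays, and the difference of -0.27 did not pass (adjusted p over all probe sets 0.179). On 1427724_at all 15 arrays lay between 4.16 and 4.84. Against PHA, however, 1442454_at was called lower with ICG too (-0.51, adjusted p over all probe sets 0.0167). The values given for Top2a are those of its brightest probe set, and the mean over the 3 probe sets no longer passed with PHA+ICG (-0.80, adjusted p = 0.0878).

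Smc2 and Smc4 encode the paired ATPases of every condensin, and their signals differed. Smc2 measured 7.07, 7.17 and 7.06 on the ICG arrays and 8.23, 8.20 and 7.72 on the PHA arrays, against 7.69, 8.23 and 8.49 on the JAH DMSO arrays. All ICG arrays were below all DMSO arrays, and Smc2 fell by 1.04 ± 0.19 (log2; adjusted p = 0.00284), to 48.7% of the DMSO signal. It measured 7.74, 8.31 and 8.11 on the PHA+ICG arrays, against 8.61, 8.79 and 8.80 on the JHO DMSO arrays. The groups did not overlap, and the difference of -0.68 ± 0.19 did not pass (adjusted p = 0.125). It did with the replicate block (0.0282) and in the unweighted fit of all 15 arrays (0.031). Of the dimmer Smc2 probe sets, 1429658_a_at, 1429660_s_at and 1458479_at were called lower with ICG (-0.71, -0.78 and -0.45). On 1429659_at the ICG difference was 0.03 and was not called.

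Smc4 measured 8.41, 8.47 and 8.39 on the ICG arrays and 8.65, 8.64 and 7.56 on the PHA arrays, against 6.92, 8.54 and 8.99 on the JAH DMSO arrays. The DMSO arrays spanned the values of both treatments, with array 1 far below the others. The ICG difference was 0.27 ± 0.46 (adjusted p = 0.716), and its 95% interval ran from -0.76 to 1.30, so moderate changes in either direction could not be told from none. Without DMSO JAH array 1 the ICG count stayed at 9 of 10 (14.2% of all genes called lower) and the Smc4 estimate turned to -0.34 (adjusted p = 0.421), and that of PHA was -0.48 (adjusted p = 0.328), where all arrays gave 0.13. The other Smc4 probe sets, 1427275_at and 1427276_at, gave ICG differences of 0.02 and -0.04, with DMSO array 1 again the lowest of all 9 JAH arrays. On the PHA+ICG arrays Smc4 measured 8.86, 9.29 and 9.30, against 9.39, 9.78 and 9.56 on the JHO DMSO arrays. These groups did not overlap, but the difference of -0.43 ± 0.19 passed neither without the block (adjusted p = 0.383) nor with it (0.146).

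All 3 genes for condensin I subunits fell with ICG. Ncapd2, which encodes a HEAT-repeat subunit, measured 5.00, 5.22 and 4.64 on the ICG arrays and 5.70, 5.74 and 5.56 on the PHA arrays, against 5.38, 5.73 and 6.33 on the JAH DMSO arrays. Each ICG array was below the lowest DMSO array, and Ncapd2 fell by 0.86 ± 0.22 (log2; adjusted p = 0.0144; 0.0563 without ICG array 3). With PHA+ICG it measured 5.38, 5.67 and 5.40, against 6.46, 6.65 and 6.64 on the JHO DMSO arrays. It was the one condensin gene called with PHA+ICG, with a log2 change of -1.10 ± 0.16 (adjusted p = 0.0168) to 46.7% of the DMSO signal. This call was lost without DMSO JHO array 2 or 3 or PHA+ICG array 3 (adjusted p 0.099, 0.0993 and 0.0914), and the dimmer probe set 1430010_at gave 0.04 there.

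Ncaph encodes the kleisin subunit that closes the condensin I ring. It measured 7.10, 6.74 and 7.20 on the ICG arrays and 7.78, 7.83 and 7.60 on the PHA arrays, against 7.56, 7.69 and 7.89 on the JAH DMSO arrays. It fell with ICG by 0.70 ± 0.13 (log2; adjusted p = 0.0026), and its second probe set fell by 0.78. With PHA+ICG Ncaph measured 7.25, 7.50 and 7.12, against 7.90, 8.02 and 8.02 on the JHO DMSO arrays. The PHA+ICG arrays were again below all DMSO arrays, with a difference of -0.69 ± 0.16 and an adjusted p of 0.0832 without the block and 0.0275 with it.

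Ncapg, a second HEAT-repeat subunit of condensin I, is read by 2 probe sets that differed in size of change. On 1429172_a_at, which represents the gene, it measured 4.45, 4.41 and 4.40 on the ICG arrays and 4.70, 5.24 and 4.74 on the PHA arrays, against 4.93, 4.82 and 5.01 on the JAH DMSO arrays, and fell by 0.50 ± 0.13 (log2; adjusted p = 0.0147; 0.0548 without DMSO JAH array 3). On 1429171_a_at it measured 4.09, 3.61 and 3.37 on the ICG arrays and 5.77, 5.20 and 5.23 on the PHA arrays, against 4.98, 5.63 and 5.92 on the JAH DMSO arrays. This second probe set fell by 1.82 ± 0.25 (log2; adjusted p over all probe sets 0.00079). On the JAH DMSO arrays 1429171_a_at had the higher mean (5.51 against 4.92), and on the JHO DMSO arrays 1429172_a_at did (6.63 against 5.88). The choice of 1429172_a_at thus rests on a mean that includes the JHO arrays. Which of the 2 reads Ncapg more fully is not shown by these values. On 1429172_a_at the PHA+ICG arrays measured 5.16, 5.99 and 6.00, against 6.11, 6.94 and 6.85 on the JHO DMSO arrays. With PHA+ICG the differences were -0.92 ± 0.30 (adjusted p = 0.204, with the block 0.00524) and -1.21 ± 0.25 (adjusted p over all probe sets 0.0631), and in both the PHA+ICG arrays lay below all DMSO arrays.

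The condensin II subunits also fell with ICG in all 3 genes. Ncapg2 measured 6.50, 6.55 and 6.49 on the ICG arrays and 7.46, 7.43 and 7.14 on the PHA arrays, against 7.00, 7.61 and 7.72 on the JAH DMSO arrays, a log2 change of -0.93 ± 0.16 (adjusted p = 0.00223) to 52.4% of the DMSO signal. The ICG arrays differed from each other by far less than the DMSO arrays did (SD 0.03 against 0.39). Under PHA+ICG Ncapg2 measured 7.32, 7.67 and 7.32, against 7.77, 8.08 and 8.46 on the JHO DMSO arrays. The groups were apart, but the difference of -0.67 ± 0.21 had an adjusted p of 0.188 without the block and 0.0558 with it.

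Ncapd3 measured 7.02, 6.93 and 6.77 on the ICG arrays and 7.83, 7.79 and 7.74 on the PHA arrays, against 7.65, 7.78 and 7.93 on the JAH DMSO arrays. The 3 values of each group lay close together, and the log2 change of -0.88 ± 0.09 (adjusted p = 8.72e-05) kept its call without any single array. Neither of the other Ncapd3 probe sets was called with ICG. The differences were -0.25 on 1434426_at and 0.01 on 1430782_at (limma adjusted p over all probe sets 0.0609 and 0.972). On the PHA+ICG arrays Ncapd3 measured 7.64, 6.29 and 7.30, against 8.02, 7.84 and 8.10 on the JHO DMSO arrays. PHA+ICG array 2 lay far below the other treated arrays, and the difference of -0.91 ± 0.32 (adjusted p = 0.242, with the block 0.029) was -0.51 without that array. The same array was low on 1434426_at (5.25, against 6.33 and 6.18 on the other PHA+ICG arrays) but high on the dimmest Ncapd3 probe set, 1430782_at (5.61, against 4.88 and 4.89).

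Ncaph2, the kleisin of condensin II, had the smallest called change of the set. It measured 9.54, 9.40 and 9.46 on the ICG arrays and 9.77, 9.68 and 9.73 on the PHA arrays, against 9.78, 9.65 and 9.75 on the JAH DMSO arrays. The ICG arrays were below the others by a narrow margin, and Ncaph2 fell by 0.26 ± 0.06 (log2; adjusted p = 0.0143), to 83.6% of the DMSO signal. The call was lost without ICG array 2 (adjusted p = 0.0532) and after median centring (0.06). Its probe sets 1423698_at and 1423699_at fell by 0.34 and 0.36, and 1429477_at gave 0.08. On the PHA+ICG arrays it measured 9.67, 9.87 and 9.78, against 9.998, 9.96 and 10.07 on the JHO DMSO arrays, a difference of -0.24 ± 0.15 (adjusted p = 0.608).

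Mki67 showed the reverse order of Top2a, with the larger estimate in the combination. It measured 7.94, 7.48 and 7.77 on the ICG arrays and 8.81, 8.59 and 8.04 on the PHA arrays, against 7.91, 9.10 and 9.29 on the JAH DMSO arrays. DMSO array 1 lay within the ICG range and the other DMSO arrays above it. The ICG change of -1.04 ± 0.32 on the log2 scale had an adjusted p of 0.0387. Leaving out DMSO JAH array 1 gave -1.47 (adjusted p = 0.00105), and leaving out any other DMSO JAH or ICG array gave an adjusted p from 0.0595 to 0.133. On the PHA+ICG arrays Mki67 measured 6.50, 7.37 and 7.27, against 9.11, 9.12 and 9.13 on the JHO DMSO arrays. The groups lay far apart, and Mki67 fell by 2.07 ± 0.24 (log2; adjusted p = 0.00791), to 23.8% of the DMSO signal, and kept its call without any single array.

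**Figure D2:**
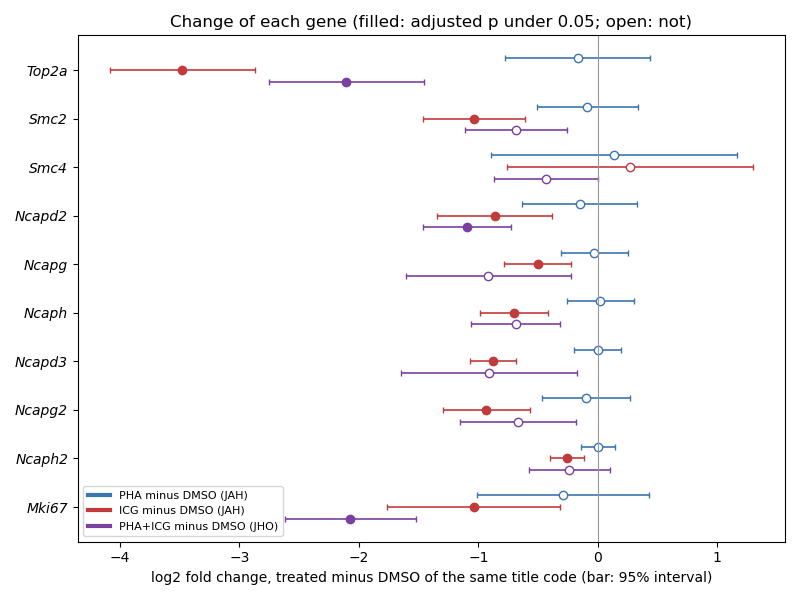
Log2 fold change of each gene (x axis, treated minus DMSO of the same title code) for PHA, ICG and PHA+ICG, with 95% intervals of the limma fit (n = 3 arrays a group). Filled points have an adjusted p under 0.05: 0 of 10 for PHA, 9 of 10 for ICG and 3 of 10 for PHA+ICG. The shares of all genes called lower were 7.07%, 15% and 1.54% in that order.

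Read by whether groups overlapped, 8 of the 10 genes had all 3 ICG arrays below all 3 DMSO arrays (all but Smc4 and Mki67; 20.4% of all genes did), and all 10 had all PHA+ICG arrays below all DMSO arrays (11% of all genes). For PHA 0 of 10 did (16.2% of all genes), and none lay above (15.4%).

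The PHA estimates were small for most genes and had intervals that differ in width. None of the 10 reached an unadjusted p under 0.05 in limma, where 4634 of all 18193 genes did. The estimates ran from -0.29 for Mki67 to 0.13 for Smc4. For Ncaph2 the 95% interval was -0.14 to 0.15 and for Ncapd3 -0.20 to 0.19, so larger shifts of these probe sets lay outside it. For Mki67 it was -1.01 to 0.43, and for Smc4 -0.90 to 1.16, which leaves room for sizeable changes either way. DMSO JAH array 1 bears on this comparison. Without it the median of the 10 estimates was -0.32. In limma 3 of the 10 then had an unadjusted p under 0.05, as did 4733 of all 18193 genes. None of the 10 was called (6.28% of all genes called lower), the lowest adjusted p being 0.0648 for Mki67 at -0.72. Other arrays moved the estimates upward: the median was 0.07 without DMSO JAH array 3, with 1 of 10 estimates below 0, and 0.02 without PHA array 3, with 3 of 10 below 0, where all arrays gave 7 of 10 below 0.

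Set directly against PHA, 8 of the 10 genes were called lower with ICG (13.7% of all genes called lower). The means compared are those of ICG and PHA arrays alone, but the error was estimated over all 9 JAH arrays, the DMSO arrays included. All ICG arrays lay below all PHA arrays in 9 of the 10 genes, Mki67 among them and Smc4 the exception (20.8% of all genes). Top2a was lower by -3.31 ± 0.27 (adjusted p = 2.49e-05), Smc2 by -0.95 ± 0.19 (0.00426), Ncapd3 by -0.87 ± 0.09 (7.17e-05) and Ncapg2 by -0.83 ± 0.16 (0.00387). The remaining 4, Ncaph, Ncapd2, Ncapg and Ncaph2, were lower by -0.73, -0.71, -0.47 and -0.26. Mki67 differed by -0.75 ± 0.32 (adjusted p = 0.123) and Smc4 by 0.14 ± 0.46 (0.873). The Ncapd2 call was lost on leaving out any 1 of 5 of the 6 arrays (adjusted p up to 0.121), the exception being ICG array 2, that of Ncapg without ICG array 2 or 3 (up to 0.0541), and that of Ncaph2 without PHA array 1 or ICG array 2 (up to 0.0533).

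Whether the combination acted more or less than one inhibitor was asked as the difference of 2 effects, each against its own DMSO arrays, in a fit of all 15 arrays with 1 weight for each title code. For PHA+ICG minus ICG 0 of 10 genes passed (0.385% of all genes called). An unadjusted p under 0.05 in limma was reached by 1 of 10, Top2a, and by 1286 of all 18193 genes. The Top2a effect was less negative by 1.37 ± 0.62 (95% interval 0.06 to 2.68, adjusted p = 0.661), and that of Mki67 more negative by -1.03 ± 0.71 (interval -2.55 to 0.48, adjusted p = 0.926). The opposite leanings of these 2 genes are estimates that did not pass the test. The weights were set on all genes, whereas the 10-gene average varied more on the JAH than on the JHO DMSO arrays (SD 0.39 against 0.15). The weighted SE may therefore be too wide for these genes. For Mki67 it was 0.71, against 0.32 for ICG and 0.24 for PHA+ICG within their title codes. Without weights this difference had 0 of 10 called (160 of all genes), and 2 at an unadjusted p under 0.05 in limma (1716 of all genes). For PHA+ICG minus PHA 0 of 10 passed (2.74% of all genes called). An unadjusted p under 0.05 in limma was reached by 5 of 10 and by 2486 of all genes. All 10 estimates were below 0, with Top2a at -1.94 ± 0.62 (adjusted p = 0.117) and Mki67 at -1.78 ± 0.71 (0.248). Without weights Top2a and Mki67 passed (adjusted p 0.0173 and 0.0337), and without PHA+ICG array 1 Ncapd3 did (0.0363). Title code and treatment differ together in these differences, so anything else that sets the codes apart cannot be told apart from the treatments.

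Counted over probe sets, 17 of the 26 were lower with ICG (9.46% of all 45037 probe sets), 3 with PHA+ICG (0.957%), 16 for ICG against PHA (8.55%) and 0 with PHA (3.49%; limma, adjusted over all probe sets). The other 9 were not called with ICG: all 3 of Smc4, 2 of Top2a, 2 of Ncapd3, and 1 each of Smc2 and Ncaph2. Their differences ran from -0.27 for Top2a on 1442454_at to 0.27 for Smc4. Probe sets of 1 gene share its transcript and are not replicates of the treatment.

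**Figure D3:**
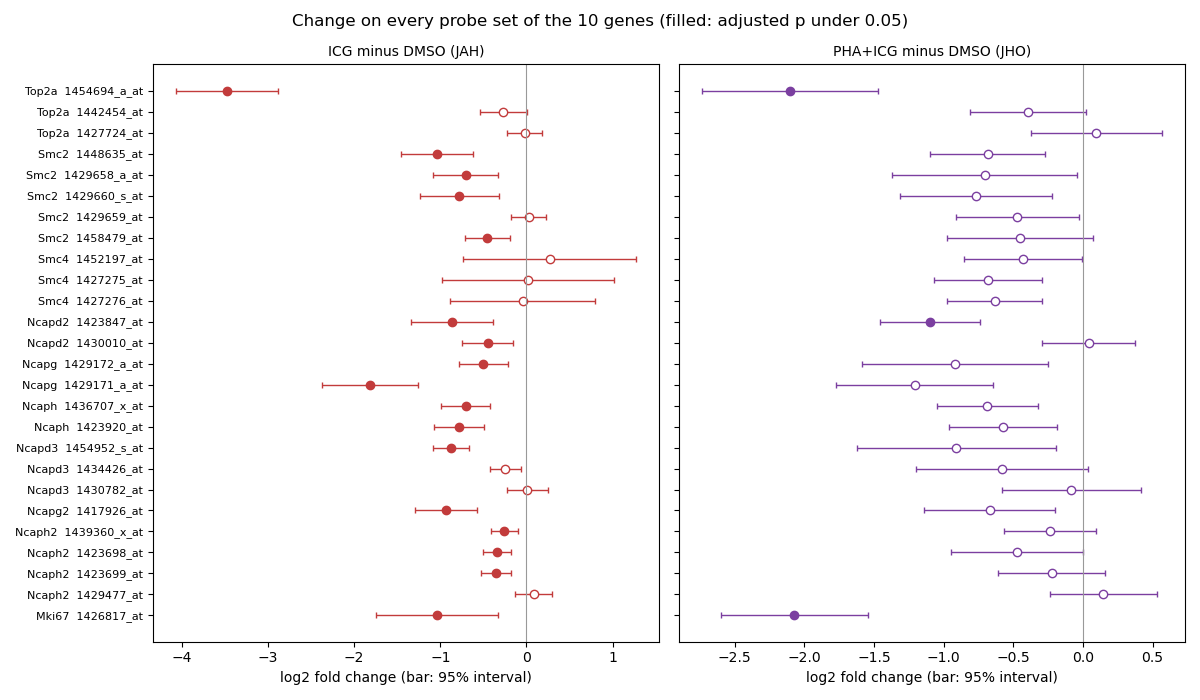
Log2 fold change (x axis) on each of the 26 probe sets of the 10 genes (y axis, symbol and probe set) for ICG and for PHA+ICG, each minus DMSO of its title code, with 95% intervals (n = 3 arrays a group). Filled points have an adjusted p under 0.05 over all 45037 probe sets, 17 for ICG and 3 for PHA+ICG. The shares of all probe sets called lower were 9.46% and 0.957%.

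The vehicle arrays of the 2 title codes differed for these genes without any inhibitor. All 3 JHO DMSO arrays were above all 3 JAH DMSO arrays in 8 of the 10 genes (23.7% of all genes), with a median difference of 0.63 (0.06 over all genes); the exceptions were Mki67 and Ncapd3. The gap was widest on Smc4, whose probe set 1427275_at averaged 10.37 ± 0.14 in JHO DMSO and 7.59 ± 1.11 in JAH DMSO (SD, n = 3 each). The 3 probe sets of Smc4 differed by 1.43, 2.63 and 2.78, and those of Smc2 by 0.37 to 2.31. On Ncapg 1429172_a_at averaged 6.63 ± 0.46 in JHO DMSO and 4.92 ± 0.10 in JAH DMSO, a difference of 1.71, while 1429171_a_at differed by 0.37. No test was made, because title code and any other difference between the 2 sets of arrays cannot be told apart. For this reason levels of PHA+ICG arrays are set only against JHO DMSO arrays.

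**Figure D4:**
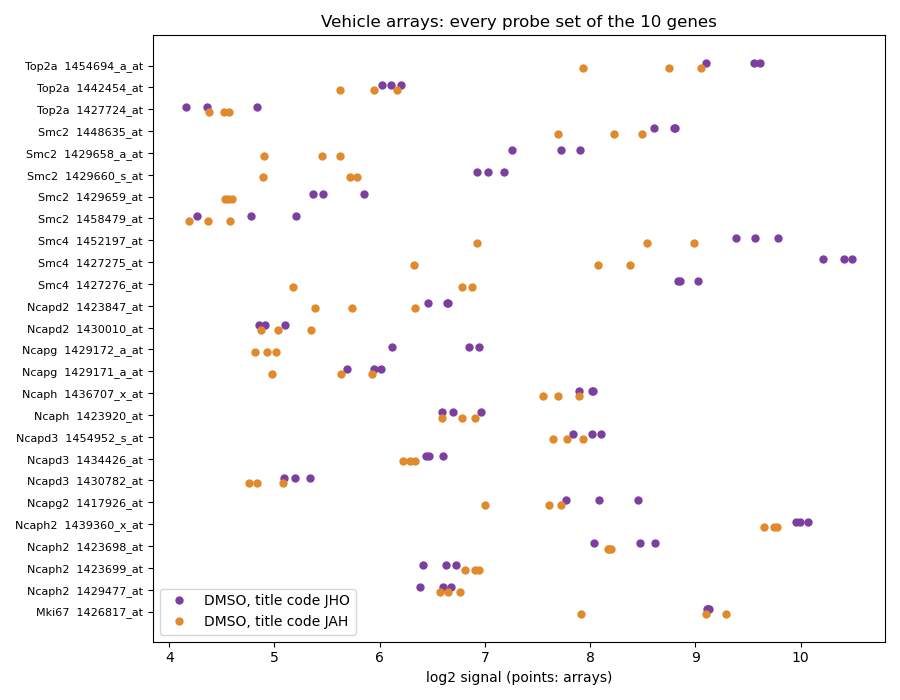
Log2 signal (x axis) of each of the 26 probe sets (y axis, symbol and probe set) on the 6 vehicle arrays; points are arrays, with JHO DMSO drawn above JAH DMSO on each row. In 15 of the 26 probe sets all JHO arrays lie above all JAH arrays, and in 1, Ncaph2 1423699_at, all lie below. Over all genes, with 1 probe set each, 23.7% lie above and 3677 of 18193 below. The shares over all probe sets were not computed.

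Most of the listed genes that work with condensin and Ki-67 in mitosis fell with ICG. Of 17 partners and kinases measured (Ccnb1 was not), 14 fell with ICG and 8 with PHA+ICG. Of all genes 15% and 1.54% were called lower. With PHA 1 rose, the kinesin gene Kif15, by 0.30 ± 0.08 (limma adjusted p = 0.0382), beside 3.14% of all genes called higher. With ICG the largest falls were those of Birc5, a subunit of the chromosomal passenger complex (-2.98 ± 0.25, adjusted p = 4.02e-05), Bub1, a checkpoint kinase (-2.75), Cdk1, the mitotic kinase (-2.68), and Ccnb2, a B-type cyclin (-2.03). With PHA+ICG they were those of Ccnb2 (-2.13 ± 0.30, adjusted p = 0.0145), Birc5 (-1.93), Cdk1 (-1.52) and Aurkb, the kinase of the passenger complex (-1.45). The median change of the list was -0.76 with ICG, -0.06 with PHA and -1.12 with PHA+ICG.

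Cohesin, the related ring that holds sister chromatids together, was followed through its subunits and regulators. Of all genes, 15% were called lower with ICG, 7.07% with PHA and 1.54% with PHA+ICG. The median change of all genes with ICG was 0.03. Of 5 core subunits 2 fell with ICG, Rad21 with a log2 change of -0.46 ± 0.07 (adjusted p = 0.00102) and Smc1a with -0.28 ± 0.07 (0.0142), and 0 passed with PHA or with PHA+ICG. Of 12 cohesin regulators 4 fell with ICG, Cdca5 (sororin, which protects cohesion, -2.21 ± 0.24), Esco2 (an acetyltransferase of cohesin, -0.78), Sgo1 (shugoshin, -0.49) and Pttg1 (securin, -0.43). With PHA+ICG 2 of the 12 fell, Cdca5 (-1.66 ± 0.20, adjusted p = 0.00817) and Pttg1 (-1.02 ± 0.19, 0.0429), and with PHA 0 passed. Of 6 Smc5/6 genes 2 fell with ICG, Nsmce1 (-0.68) and Nsmce2 (-0.33), and 0 in the other treatments. Of the 5 other DNA topoisomerase genes (Top1, Top1mt, Top2b, Top3a and Top3b) 0 passed in any of the 3 treatments. For ICG, PHA and PHA+ICG in that order, the median changes were -0.17, -0.18 and -0.34 for the cohesin core, -0.01, -0.06 and -0.17 for its regulators, 0.01, 0.02 and -0.35 for Smc5/6 and -0.02, -0.02 and 0.28 for the topoisomerases.

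Regulators of mitotic genes, namely the MuvB complex, B-Myb, FoxM1, RB and E2F families and NF-Y, were mostly not called. Of all genes, 15% were called lower with ICG and 1.54% with PHA+ICG, and 3.14% were called higher with PHA. Of 21, 6 fell and 1 rose with ICG, the largest falls being those of the atypical E2F genes E2f7 (-1.97 ± 0.20, adjusted p = 8.78e-05) and E2f8 (-1.70 ± 0.17, 9.24e-05), then Rbl1, which encodes p107 (-0.59), and Mybl2, which encodes B-Myb (-0.55). The gene that rose was Lin54, a MuvB subunit (0.32, adjusted p = 0.00732), named after its value was seen. With PHA 1 rose, Tfdp2, a dimer partner of E2F (0.31 ± 0.08, adjusted p = 0.03), and with PHA+ICG 0 of 21 passed. The list medians were -0.14, -0.05 and -0.11 for ICG, PHA and PHA+ICG.

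Some markers of other cell types were called in these comparisons too. The shares of all genes called lower were 15% with ICG, 7.07% with PHA and 1.54% with PHA+ICG. With PHA 3.14% were called higher, and with ICG 2162 of 18193 genes. Of 15 fibroblast markers 13 were lower with ICG, 9 with PHA and 3 with PHA+ICG, with median log2 changes of -1.19, -0.67 and -0.68. Their summed linear signal was 30700 to 35600 on the ICG arrays and 34400 to 34600 on the PHA arrays, against 42300 to 54200 on the JAH DMSO arrays, and 82800 to 97500 on the PHA+ICG arrays, against 115000 to 131000 on the JHO DMSO arrays. Of 14 leukocyte markers 8 were lower with ICG, 4 with PHA and 0 with PHA+ICG, with sums of 56700 to 58700 on the ICG arrays and 56000 to 60200 on the PHA arrays, against 60900 to 68200 on the JAH DMSO arrays. On the JHO arrays the leukocyte sums were 8910 to 34000 for PHA+ICG, against 11800 to 44900 for DMSO. Of 12 epithelial markers 4 fell and 3 rose with ICG, 3 fell and 3 rose with PHA, and 0 passed with PHA+ICG; their sums were 6430 to 6970 for ICG and 6750 to 7000 for PHA, against 6870 to 7210 for JAH DMSO, and 3330 to 7950 for PHA+ICG, against 7070 to 8300 for JHO DMSO. Of the endothelial markers 1 rose with ICG, 1 fell with PHA and 0 passed with PHA+ICG, and they summed to 234 to 404 on all 15 arrays. The lowest log2 value of an array was 2.40 to 2.48, so a sum above 0 does not show that a cell type was present. The part of these shifts in the results on the 10 genes was not tested.

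To show which genes ran most like a member, Pearson correlations were taken over the 15 arrays after the mean of the DMSO arrays of the same title code was subtracted. They describe these arrays, which share 2 sets of DMSO arrays and fall into treatment groups, and carry no test. Symbols that end in Rik or start with Gm and a digit were passed over in naming genes. Top2a ran most like Pbk (r = 0.99), Mcm5, Birc5, Spc25 and Ccne2, and Mki67 most like Aspm (0.97), Prc1, Plk1, Nusap1 and Arhgef25. Smc2 ran most like Ube2c (0.97), Ccna2, Spag5, Kifc1 and its fellow condensin gene Ncapg2 (0.96), which in turn had Smc2 first. Ncaph2 had Cyth2 first (0.94), then Rpl13a, Pdzrn3, Vapb and Anxa5. Within the 10 genes, Top2a correlated at 0.94 with Smc2, at 0.73 with Mki67 and at 0.14 with Smc4.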

How the data were processed

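RNA of 15 mammosphere samples was hybridised to 15 arrays. The authors deposited log2 values of 45101 probe sets; the submitters' processing notes name RMA and MAS5 without versions or roles, and whether both title codes were normalized together is not given in the sources used here. A log2 difference after such summarising may be smaller than the true change, most of all for dim probe sets.

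The platform annotation gave 34945 probe sets 1 symbol, 932 several (left out) and 9160 none; 64 controls were left out. The probe set with the highest mean stood for each of 18193 genes (9010 had several). Ccnb1, on a list of related genes, was not measured; 1 further listed item is not reported here.

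Fits used limma 3.58.1 in R 4.3.3 within 1 title code, Benjamini-Hochberg adjusted, with a threshold of 0.05; differences of 2 effects used all 15 arrays with arrayWeights by title code, and the probe set counts used all 45037. Tables were made with pandas 2.3.3 and numpy 2.4.6 in Python 3.11.15 and figures with matplotlib 3.10.9, and the fit was tested on simulated data. Fold changes are treated minus DMSO, with the SE of the moderated fit. The number of arrays limits the precision.

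The 10 genes, the lists of related genes, the cell type markers and the tests were chosen with earlier results of these data known. The rule for named genes took all 10 genes and, from each related list, up to 4 called genes with the largest change. For 5 of the 10 genes the rule took the 5 most correlated genes, passing over symbols that end in Rik or start with Gm and a digit.

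Deviations of same-numbered arrays correlated at 0.614, 0.363 and 0.277 in the JHO arrays. The main fit of these arrays took no pairs, and the fit with the replicate number as a block is given as an alternative. The labels name no pairs, and arrays 2 and 3 also correlated across numbers (0.238 and 0.351). In the JAH arrays the correlations ran from -0.262 to 0.117, and the main fits took no pairs there either. Alternatives were pooled, weighted and blocked fits, other scalings, the mean over probe sets, a filter on dim genes and leaving out each array.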

Additional observations from a re-analysis of the deposited data

How the results depend on the processing

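The number of arrays, 3 in each group, limits what can be called. The count of all called genes moved with the error estimate. One fit of all 15 arrays called 182 genes for PHA (1858 within its title code), 1255 for ICG (4896), 2413 for PHA+ICG (368) and 1463 for ICG against PHA (4939); with 1 weight for each title code, an alternative chosen after seeing the data, PHA+ICG had 641. The replicate block called 1202 genes for PHA and 1442 for PHA+ICG. For PHA+ICG the 10 chromosome genes had 8, 0 and 7 called in the pooled, weighted and blocked fits (3 without). The block took the ICG call from Mki67 (limma adjusted p = 0.0724) and the ICG against PHA call from Ncapd2 (0.0581). Whether the replicate numbers of the JAH arrays are pairs is not given in the labels. For the PHA+ICG effect minus the ICG effect (70 genes) the counts were 160 without weights, 21 for genes above the median level and 197 with the block; for the effect minus the PHA effect (499) they were 860, 331 and 958, with 2 of the 10 called without weights.

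Leaving out 1 array gave 1005 to 1691 genes for PHA, 3696 to 4756 for ICG, 3922 to 4399 for ICG against PHA, 56 to 389 for PHA+ICG (67 without DMSO JHO array 2, 56 without array 3), and 1 to 144 and 149 to 719 for the differences from the ICG and PHA effects. Of the 10 genes this left 0, 7 to 9, 6 to 7, 1 to 3, 0 and 0 to 1 called.

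Signs turned only for estimates that had not passed. For PHA the mean over probe sets gave 0.0367 for Top2a, -0.0661 for Ncaph, -0.0442 for Ncaph2 and 0.0044 for Ncapd3; median centring gave 0.0291 for Ncapg and 0.0568 for Ncapd3, and quantile normalization 0.0449 for Ncapd3. The mean over probe sets gave -0.0006 for Smc4 in ICG against PHA, and -0.0262 for Smc2, 0.13 for Ncapd2 and 0.0988 for Ncapg in the difference from the ICG effect. With 1 array left out the PHA estimates ran from -0.49 to 0.0664 for Top2a, -0.31 to 0.0876 for Smc2, -0.48 to 0.55 for Smc4, -0.37 to 0.11 for Ncapd2, -0.20 to 0.0646 for Ncapg, -0.0569 to 0.11 for Ncaph, -0.0699 to 0.0695 for Ncapd3, -0.32 to 0.0388 for Ncapg2 and -0.0365 to 0.0282 for Ncaph2. Smc4 ran from -0.34 to 0.69 for ICG, -0.23 to 0.32 for ICG against PHA and -0.98 to 0.0507 in the difference from the PHA effect. In the difference from the ICG effect Ncaph ran from -0.12 to 0.11, Ncapd3 from -0.32 to 0.36 and Ncaph2 from -0.0283 to 0.0724. The cause of these shifts was not tested.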
